A study of Mus musculus with 20 samples.

Results

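The protein components of the mitochondrial ribosome were examined as mRNAs in mouse liver. Members were the gene symbols that begin with Mrpl or Mrps followed by a number, which gave 73 of the 13319 measured symbols, 46 Mrpl and 27 Mrps. All 73 passed the filter on low counts, and none was at 0 in any of the 20 libraries.

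Per the labels, every library is the liver RNA of 1 male mouse that ate a western diet and was dosed each day for 16 days. The 5 groups of 4 libraries were a control, glucagon (the pancreatic hormone that drives glucose output from the liver), T3 (triiodothyronine, the active thyroid hormone), glucagon given with T3 (the combination), and a group labelled Cp. Cp was taken as the single molecule that joins glucagon and T3, because it is the one treatment in the study's description left without a label. All groups, the control included, share sex, diet and schedule. The sources used here give no strain, age, dose, control injection or hour of sampling, so no dose of the hybrid can be set beside a dose of the separate hormones.

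The mitochondrial ribosome translates the few proteins encoded by mitochondrial DNA, all of them parts of the respiratory chain and ATP synthase. Its proteins are encoded in the nucleus, made in the cytosol and imported. Many descend from bacterial ribosomal proteins, and others are additions found in mitochondria. Glucagon and T3 are both known to act on hepatic mitochondria, through the coactivator family of PGC-1 (Ppargc1a and Ppargc1b) among other routes. Of the members, 48 belong to the large subunit and 25 to the small one. Mrps30 and Mrps18a count as large because they sit there despite their names. By ancestry 46 have a bacterial counterpart and 27 are mitochondria-specific.

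Total counts ran from 6091917 to 23195658 per library. The lowest count of any member in any library was 7 (Mrpl48, in glucagon replicate 3). Levels are given as CPM (counts scaled to 1 common library size) after TMM scaling, with SD over 4 mice. Control replicate 1 stood apart in the members. It lay more than 1.5 times above the median of the other 3 controls in 24 of 73 members and more than 2 times above it in 14, and it lay more than 1.5 times below that median in 13 members and more than 2 times below it in 5. The median coefficient of variation of the members was 26.9% in the controls, 14.2% in the 3 controls without replicate 1, and 11.4% to 12.9% in the treated groups. Over all genes tested it was 33.7% in the controls and 15.7% to 17.8% in the treated groups. Skeletal muscle markers were high in glucagon replicate 3 (3316 CPM summed over 12 genes) and control replicate 2 (870 CPM), and interferon response genes were high in control replicate 2 (1781 CPM over 10 genes). All T3 libraries were sequenced in lane 5 and all others in lanes 1 to 4 by replicate number, so lane and T3 alone cannot be told apart, whereas combination against glucagon is a comparison within lanes.

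The summed level of the hepatocyte markers (9 of 10 listed genes measured, none at 0 in all libraries) differed between groups. It ran from 148124 to 294830 CPM in control, 173695 to 238799 in glucagon, 96575 to 141777 in T3, 106812 to 159378 in the combination and 87723 to 123054 in Cp. Most of this sum was Alb in every library, and the 9 genes did not all move alike. Ahsg took a larger share of raw counts in every T3 library than in any control. Its highest control share was 126114 of 18939657 counts (replicate 2), and its lowest T3 share 56619 of 6949921 (replicate 3). Unlike the CPM sums, these shares carry no TMM scaling. The TMM factors were 0.8062 to 1.094 in control and 1.02 to 1.22 in T3, so the gap is narrower in CPM. Kupffer cell and macrophage markers (13 of 14 measured, none at 0 throughout) ran from 685 to 1355 CPM in control, 519 to 651 in glucagon, 1531 to 1920 in T3, 1138 to 1352 in the combination and 1153 to 1608 in Cp. Cell cycle genes (9 of 10 measured) summed to 25.1 to 82.8 CPM in control, 21.6 to 26.6 in glucagon, 49.9 to 135 in T3, 38.2 to 95.9 in the combination and 62.4 to 141 in Cp. Interferon response genes (10 of 10 measured) ran from 112 to 1781 CPM in control, 88.9 to 182 in glucagon, 333 to 913 in T3, 215 to 624 in the combination and 362 to 679 in Cp. The part of these shifts in the results below was not tested. In whole liver, fewer cells of a type and less RNA per cell cannot be told apart.

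Member levels spanned a wide range. Per kilobase of exon, Mrpl54 (a mitochondria-specific large-subunit protein) was highest at 267 CPM per kb over the 20 libraries, followed by Mrps34 at 208 and Mrpl14 at 134. The lowest were Mrpl48 at 0.143, Mrpl47 at 0.571 and Mrps16 at 0.676 CPM per kb. The length is that of all annotated exons of the gene merged, and the order depends on it. By CPM alone Mrps34 was highest (429), then Mrpl38 (244) and Mrpl54 (220). The Mrps34 value is uncertain, since 77.8% of its exonic bases also lie in exons of Nme3 or Mapk8ip3 and the sources used here do not give the strand setting of the counting. Across the 5 groups, the highest group mean exceeded the lowest by a median of 1.39 times over the 73 members and by at most 2.35 times (Mrpl1). Summed over all members, the mean level of the 4 control livers was 3721 ± 242 CPM (SD, n = 4). It was 3702 ± 131 CPM in glucagon, 3443 ± 84.8 in T3, 3494 ± 81.2 in the combination and 3385 ± 148 in Cp. As a share of raw counts the order was different, from 0.311% ± 0.00986 in glucagon and 0.345% ± 0.0225 in control to 0.365% ± 0.0268 in the combination, 0.374% ± 0.0261 in T3 and 0.386% ± 0.0378 in Cp.

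**Figure D1:**
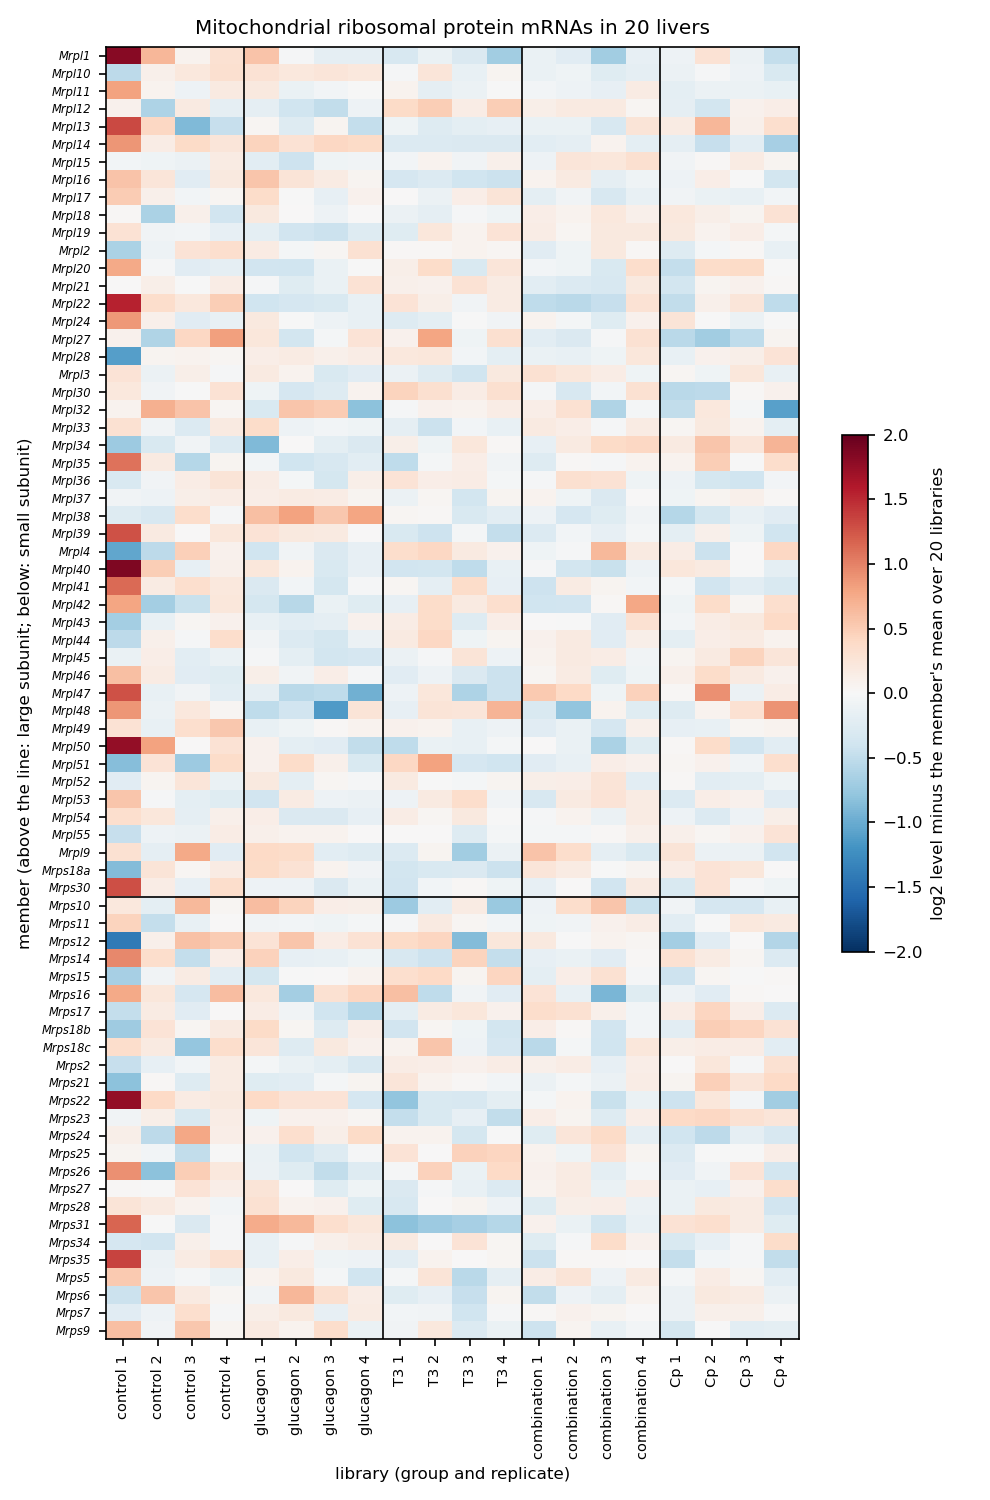
Each row is 1 of the 73 members (large subunit above the line, small subunit below) and each column 1 library. Colour gives the log2 level minus that member's mean over the 20 libraries, and the column of control replicate 1 holds the strongest colours, with 24 members more than 1.5 times above the median of the other controls.

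A gene was called where the edgeR quasi-likelihood test, adjusted by Benjamini-Hochberg over all 12907 genes tested, gave an adjusted p under 0.05. Changes are log2 differences with their standard errors (SE). Of the 73 members, 21 were called in at least 1 of 7 comparisons and 52 in none. Some refits below give a member count without the share of all genes called in the same fit. Such a count shows how the fit moves the calls and is not a result about the members. The comparisons against control share their control mice, and those with the combination share its mice, so their values are given side by side and are not independent of each other.

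**Figure D2:**
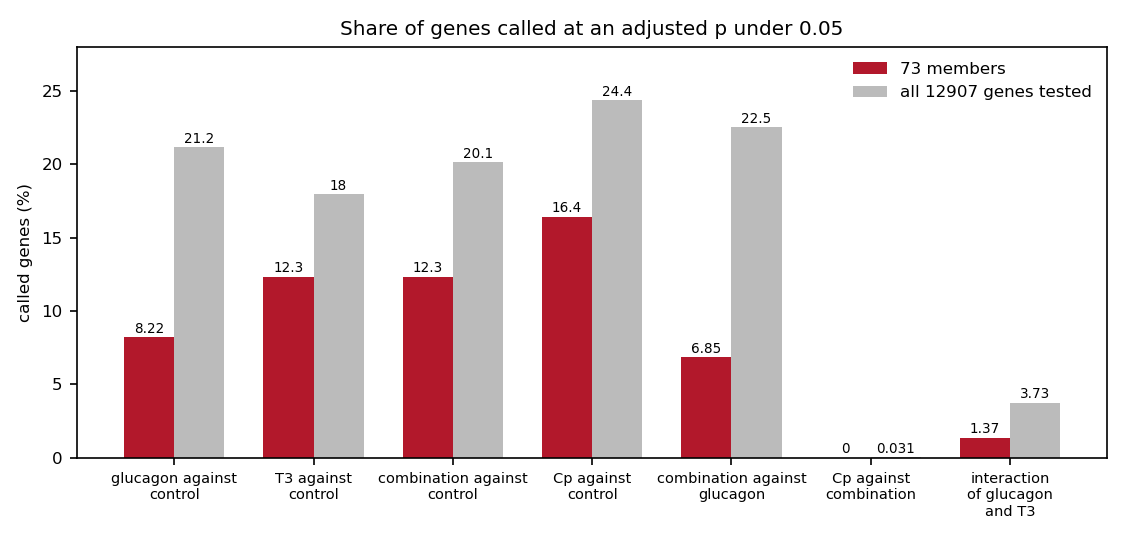
Bars give the percentage of the 73 members (red) and of all genes tested (grey) that were called in each comparison. The members' share is 8.22%, 12.3%, 12.3% and 16.4% for glucagon, T3, the combination and Cp against control, and 6.85%, 0% and 1.37% for the remaining 3 comparisons, next to 21.2%, 18%, 20.1%, 24.4%, 22.5%, 0.031% and 3.73% of all genes.

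Glucagon against control asks what the peptide does alone. In the glucagon livers Mrpl38 rose, and 5 members fell: Mrpl22, Mrpl40, Mrpl41, Mrpl50 and Mrps30. The 6 called members are 8.22% of 73, next to 21.2% of all genes tested (9.23% higher and 11.9% lower). The median member change was -0.09 (log2), as was that of all genes (-0.09), and 24 members lay above 0. None of the 25 small-subunit members was called, against 6 of the 48 in the large subunit; the difference between subunits was not tested.

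Mrpl38, a mitochondria-specific protein of the central protuberance, the crown of the large subunit, was the member that rose with glucagon. Its level was 196, 187, 298 and 231 CPM in the 4 controls and 356, 409, 340 and 405 CPM in the 4 glucagon livers. It was 242, 238, 190 and 203 CPM in T3, 219, 186, 198 and 222 CPM in the combination, and 158, 183, 211 and 200 CPM in Cp. Every glucagon liver was above every liver of the other 4 groups, and those 4 overlapped each other. The change with glucagon was 0.73 ± 0.15 (SE), a 1.66-fold rise (edgeR adjusted p = 0.00216), and it was called in all 8 fits that left out 1 control or glucagon library. With T3 added to glucagon, Mrpl38 changed by -0.87 ± 0.15, to 0.546-fold (edgeR adjusted p = 0.000374, combination against glucagon), again in all 8 such fits. The change in T3 alone was -0.06 (95% interval -0.38 to 0.26), in the combination -0.14 (-0.46 to 0.18) and in Cp -0.28 (-0.60 to 0.04). The gene lies at chr11:116131817-116138868 on the minus strand (GRCm38), and none of its exonic bases are shared with another gene.

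The interaction of glucagon and T3, the effect of T3 on top of glucagon minus its effect alone, was called for Mrpl38 and for no other member. This is 1.37% of the 73, next to 3.73% of all genes (1.6% higher and 2.14% lower). Part of the interaction is T3 minus control, where lane and T3 cannot be told apart. Its value for Mrpl38 was -0.81 ± 0.22 (edgeR adjusted p = 0.0404). Without control replicate 1 it stayed called (0.0459; 4.05% of all genes called). It was lost with the 2 hormones' 4 groups fitted alone (0.0664; 2.89% of all genes called), with the replicate number as a block (adjusted p = 0.0625), with library totals as the only scaling (0.102), without control 2 and glucagon 3 together (0.0576), and without any 1 of glucagon 2 or 4, T3 1, 2 or 4, or combination 2 or 3. The replicate number marks no lane in the T3 libraries, so the block ties them to the other groups by number alone. The highest interaction value among the members was that of Mrpl47, a protein near the exit of the nascent chain, at 1.41 (95% interval 0.40 to 2.42) with an adjusted p of 0.127 from edgeR; its control replicate 1 was at 5.67 CPM and the other controls at 2.04 to 2.25 CPM.

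Mrpl22, at the rim of the polypeptide exit tunnel, was 32.7, 14.4, 13.1 and 15.9 CPM in control and 8.59, 8.93, 9.20 and 10.2 CPM in glucagon. The groups did not overlap, and control replicate 1 was far above the other 3 controls. Mrpl22 fell by 1.05 ± 0.26 with glucagon (edgeR adjusted p = 0.00687) and stayed called without that library (0.0309). The other falls with glucagon were not called without control replicate 1. That library was not alone in this, since leaving out glucagon 2, 3 or 4 also brought the count to 3 members. Mrpl50 was 100, 51.7, 29.8 and 36 CPM in control and 21.1 to 31.5 CPM in glucagon, and its adjusted p went from 0.00931 to 0.0504 without that library. Mrpl40 went from 0.0499 to 0.464, Mrpl41 from 0.0335 to 0.156 and Mrps30 from 0.0402 to 0.243, and these 3 were also lost with the replicate block (0.0558, 0.0577 and 0.0637). Without control replicate 1 the comparison called 2 members higher and 1 lower (20.7% of all genes), and with the 2 groups fitted alone it called Mrpl38 only (7.83% of all genes). Scaled by library totals, 1 was higher and 12 lower, and the median moved to -0.24 for the members and for all genes alike.

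**Figure D3:**
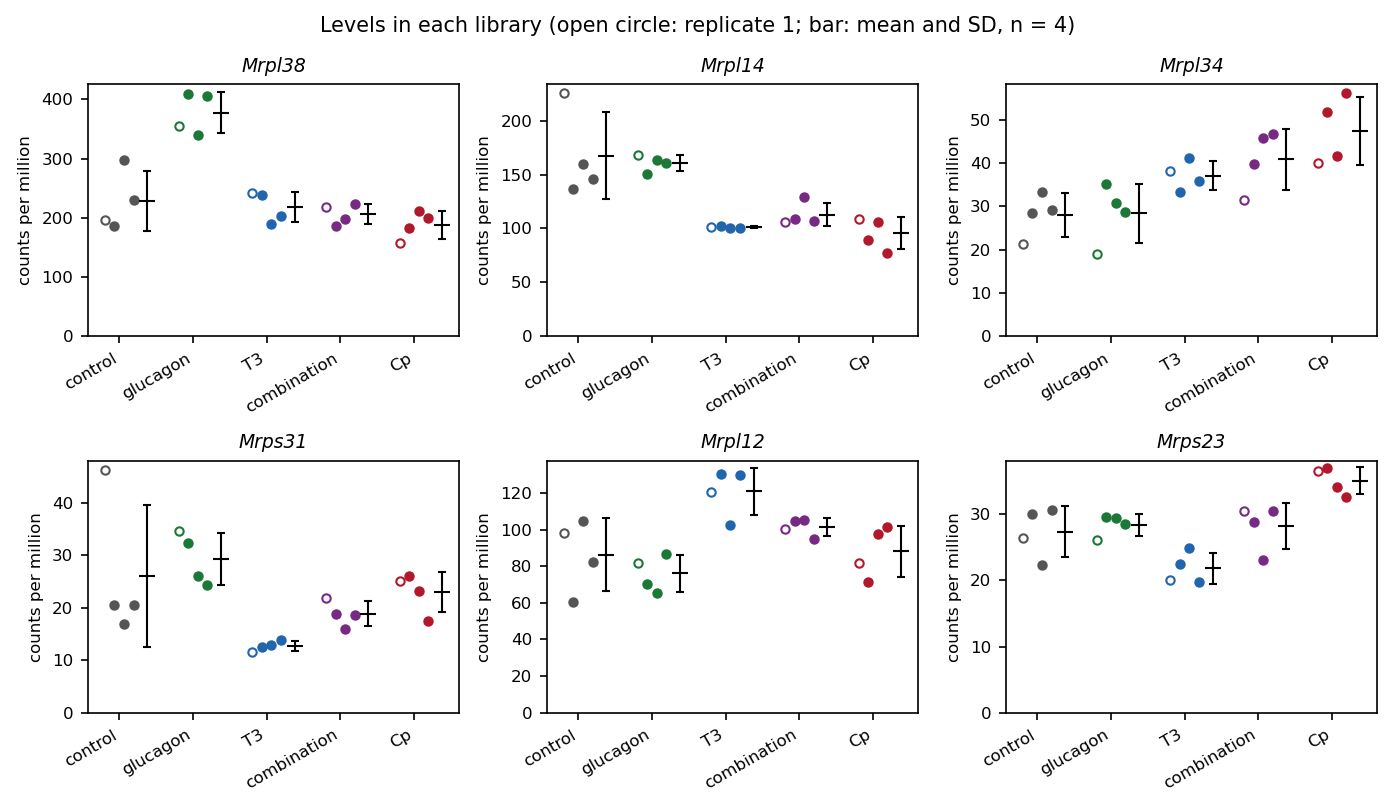
Each panel gives the CPM of 1 member in every library, with the group mean and SD (n = 4) beside the points and replicate 1 as an open circle. Mrpl38 is high in the 4 glucagon livers (340 to 409 CPM), Mrpl14 is low in all 12 livers that received T3 in some form (77.6 to 129 CPM), and Mrpl34 is at its highest in Cp (40.02 to 56.3 CPM).

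T3 against control asks what thyroid hormone does alone. Here 1 member rose, Mrpl12, and 8 fell: Mrpl1, Mrpl14, Mrpl16, Mrpl39, Mrpl40, Mrpl50, Mrps22 and Mrps31. The 9 are 12.3% of 73, next to 18% of all genes tested (7.31% higher and 10.6% lower). The median member change was -0.13 and that of all genes -0.05, and the 4 T3 livers did not overlap the 4 controls in 8 members, all of them lower in T3, where 15% of all genes did not overlap.

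Mrpl14, the counterpart of a bacterial protein at the interface between the subunits, was called in 4 of the 7 comparisons, always lower. Its level was 226, 137, 160 and 146 CPM in control, 168, 150, 163 and 160 in glucagon, 102, 102, 101 and 101 in T3, 106, 109, 129 and 107 in the combination, and 109, 89.2, 106 and 77.6 in Cp. All 8 livers without T3 were at or above 137 CPM, and all 12 with T3, alone, with glucagon or in the Cp group, were at or below 129 CPM. The fall was 0.72 ± 0.15 with T3 (edgeR adjusted p = 0.00303), 0.57 ± 0.15 with the combination (0.0114) and 0.81 ± 0.15 with Cp (0.000594), that is 0.606-fold, 0.675-fold and 0.571-fold of control. These 3 calls held in all 8 fits that left out 1 library and without control replicate 1 (adjusted p = 0.00803, 0.0340 and 0.00112). With the compared groups fitted alone, Cp stayed called (0.0445), while T3 (0.0787) and the combination (0.121) did not. Glucagon alone moved Mrpl14 by -0.06 (95% interval -0.37 to 0.25). The gene lies at chr17:45686322-45698495 on the plus strand, and 11.2% of its exonic bases are shared with Tmem63b on the other strand.

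Mrps31, a mitochondria-specific small-subunit protein, was 46.3, 20.6, 16.96 and 20.4 CPM in control and 11.7, 12.5, 12.98 and 13.9 CPM in T3, with no overlap. In glucagon it was 34.6, 32.3, 26.1 and 24.3 CPM, in the combination 21.9, 18.9, 16.0 and 18.7, and in Cp 25.2, 26.1, 23.3 and 17.5. It fell by 1.04 ± 0.25 with T3 (edgeR adjusted p = 0.00731; 0.0218 without control replicate 1) and was not called in any other comparison. Mrpl1, the counterpart of the bacterial protein of the movable L1 stalk, was 38.6, 17.3, 11.47 and 13.5 CPM in control, 6.71 to 9.96 CPM in T3, 6.74 to 9.95 CPM in the combination and 7.84 to 13.4 CPM in Cp. Its fall was 1.24 ± 0.30 with T3 (edgeR adjusted p = 0.00941) and 1.18 ± 0.30 with the combination (0.00871), and both calls held without control replicate 1 (0.0450 and 0.0426). Mrpl39 was 127, 59.6, 52.9 and 61.6 CPM in control and 37.9 to 51.1 CPM in T3, a fall of 0.82 ± 0.21 that also held without that library (0.0378).

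Mrpl40, Mrpl50, Mrps22 and Mrpl16 had changes of -1.16, -1.07, -1.19 and -0.58 in T3 but were not called without control replicate 1 (edgeR adjusted p = 0.0533, 0.0705, 0.0569 and 0.0633). Mrps22, a mitochondria-specific small-subunit protein, had 1 high control, with 48.1 CPM in replicate 1 and 18.9, 16.0 and 16.4 CPM in the others, against 8.22 to 12.5 CPM in T3. Mrpl16 did not have this shape, with 94.8, 75.2, 54.9 and 73.5 CPM in control and 47.6 to 52.8 CPM in T3. Mrpl12, the counterpart of the bacterial stalk protein that recruits elongation factors, was 98.2, 60.4, 105 and 82.1 CPM in control and 120, 130, 103 and 130 CPM in T3. The groups overlapped, the rise was 0.49 ± 0.16 (edgeR adjusted p = 0.0431), and it was lost without control 2 or 4 or T3 1, 2 or 4. The T3 comparison called 6 members without control replicate 1 (12.3% of all genes), with Mrps18a added among the falls, and 17 without control replicate 3 (share of all genes not given). It called none with the 2 groups fitted alone, where 4.19% of all genes were called.

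**Figure D4:**
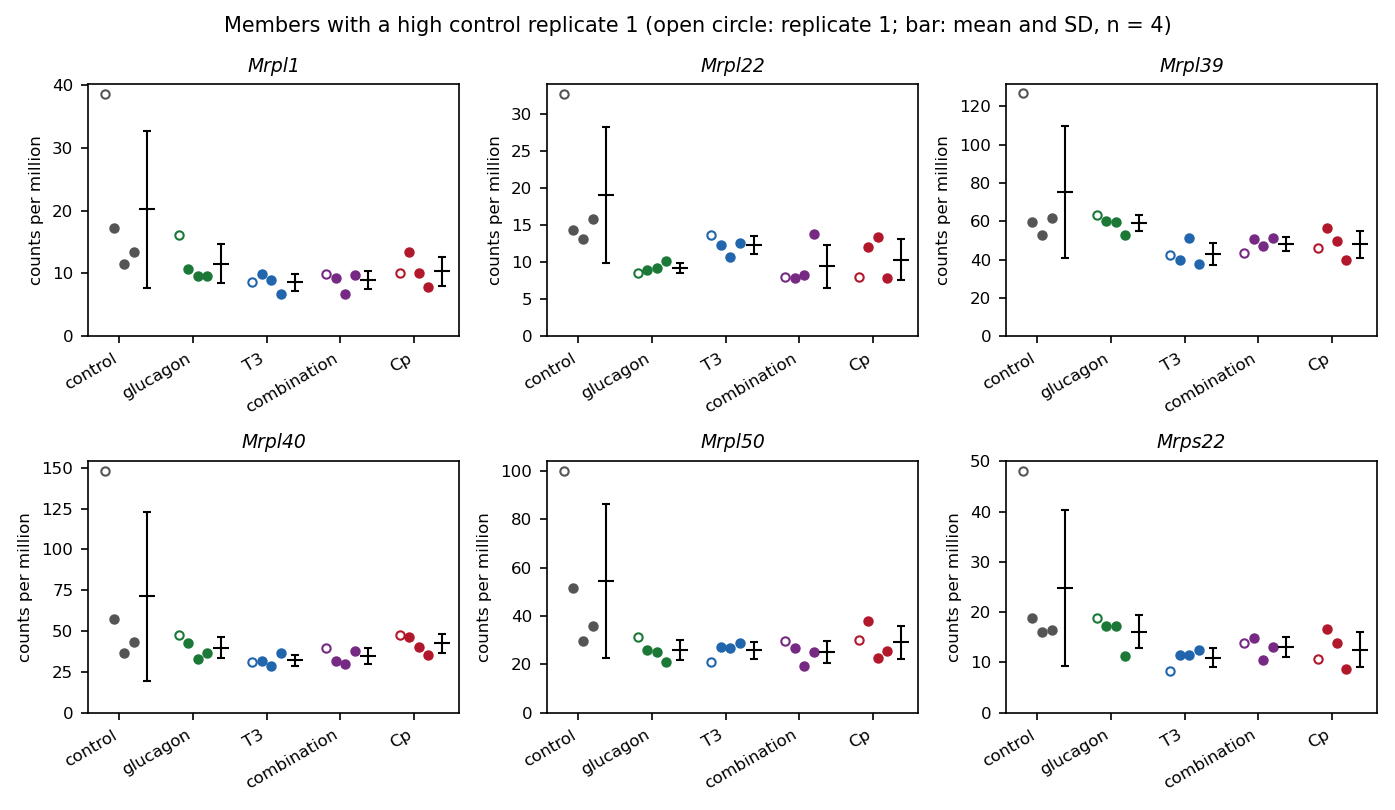
CPM in every library for 6 members with a high control replicate 1 (open circle in the control column), with group mean and SD (n = 4) beside the points. Some falls of Mrpl1, Mrpl22, Mrpl39 and Mrpl50 stayed called without that library. In Mrpl40 control replicate 1 was at 148 CPM and the other controls at 36.4 to 57.4 CPM, and the treated groups lay between 28.7 and 47.7 CPM.

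The combination against control asks what the separate hormones do together. Mrpl34 rose and 8 members fell: Mrpl1, Mrpl14, Mrpl22, Mrpl39, Mrpl40, Mrpl49, Mrpl50 and Mrps22. The 9 are 12.3% of 73, next to 20.1% of all genes (9.23% higher and 10.9% lower). The median member change was -0.09, and that of all genes -0.07. Beside Mrpl14 and Mrpl1, the falls that held in all 8 fits without 1 library were those of Mrpl50 and Mrpl22. Mrpl50, a mitochondria-specific large-subunit protein, was 29.7, 26.9, 19.2 and 25.1 CPM in the combination, below every control (29.8 to 100), and fell by 1.11 ± 0.28 (edgeR adjusted p = 0.00831; 0.0378 without control replicate 1). Mrpl22 was 7.99, 7.82, 8.22 and 13.8 CPM, and fell by 1.02 ± 0.26 (0.0097; 0.0415 without that library). Mrpl39 was lost with the replicate block (0.0521), and it, Mrpl40, Mrpl49 and Mrps22 were lost without control replicate 1. That fit called 5 members lower, with Mrpl10 added, and none higher (17.9% of all genes called). No member was called with the 2 groups fitted alone (7.43% of all genes), and 5, all lower, when the T3 group was left out of the fit.

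Cp against control asks what the hybrid molecule does. Mrpl34, Mrps21 and Mrps23 rose, and 9 members fell: Mrpl1, Mrpl14, Mrpl22, Mrpl39, Mrpl41, Mrpl50, Mrps9, Mrps22 and Mrps35. The 12 are 16.4% of 73, next to 24.4% of all genes (11.2% higher and 13.2% lower). The median member change was -0.10 and that of all genes -0.05. Only Mrpl14 and Mrpl34 were called in all 8 fits without 1 library.

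Mrpl34, a small bacterial-type protein of the large subunit, was 21.3, 28.3, 33.3 and 29.0 CPM in control, 19.0, 35.2, 30.7 and 28.8 in glucagon, 38.1, 33.3, 41.1 and 35.8 in T3, 31.4, 39.8, 45.7 and 46.7 in the combination, and 40.02, 51.9, 41.7 and 56.3 in Cp. All Cp livers were above all control and glucagon livers. The rise was 0.76 ± 0.19 with Cp (1.70-fold, edgeR adjusted p = 0.00526; 0.0398 with the 2 groups fitted alone). With the combination it was 0.55 ± 0.19 (0.0425), lost without any 1 of 6 of the 8 libraries, and with T3 0.41 (95% interval 0.02 to 0.80), not called at 0.135. Mrps23, a mitochondria-specific small-subunit protein, was 26.5, 30.03, 22.4 and 30.6 CPM in control and 36.6, 37.01, 34.1 and 32.7 CPM in Cp, with no overlap, and rose by 0.36 ± 0.13 (0.0490; 0.0599 with the replicate block). Mrps21, the counterpart of bacterial S21, was 14.1, 25.2, 20.8 and 27.8 CPM in control and 25.9, 34.4, 29.4 and 32.7 CPM in Cp and rose by 0.48 ± 0.17 (0.0413). Both were lost without control replicate 1 (0.0710 and 0.0957), a fit that called 2 members higher and 3 lower (23.1% of all genes called). With the 2 groups fitted alone, Mrpl34 and Mrpl14 were called (9.61% of all genes). Without control 2 and glucagon 3 the count was 4 higher and 15 lower, and scaled by library totals it was 8 higher and 1 lower. The share of all genes called in these fits is not given. Library totals moved the median to 0.19 for the members and 0.24 for all genes.

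**Figure D5:**
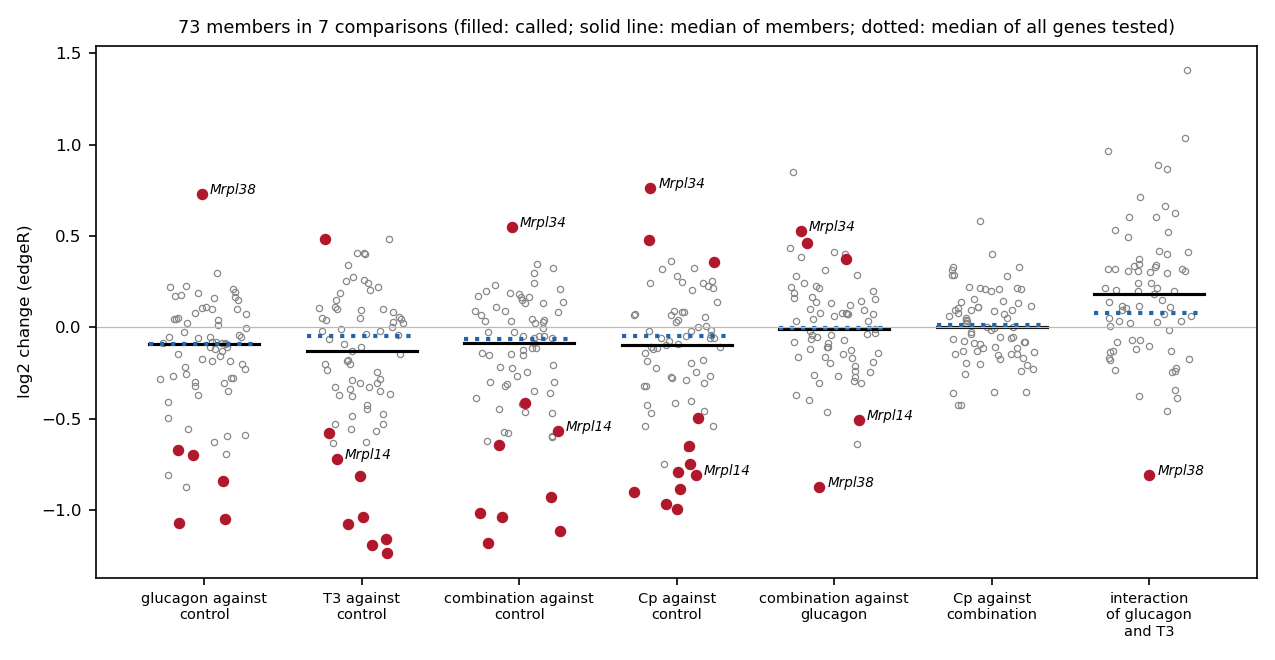
Each point is the log2 change of 1 member (vertical axis) in 1 of 7 comparisons (horizontal axis); filled points were called, solid lines mark the median of the 73 members and dotted lines that of all genes tested. Called members lie mostly below 0 against control, Mrpl38 changes sides between glucagon against control (0.73) and combination against glucagon (-0.87), and no point is filled for Cp against combination.

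Combination against glucagon asks what T3 adds to glucagon, with both groups spread over the same 4 lanes. The difference itself uses no control values, though the controls enter the estimate of spread that all groups share. Mrpl15, Mrpl19 and Mrpl34 were higher, and Mrpl38 and Mrpl14 lower. The 5 are 6.85% of 73, next to 22.5% of all genes (12.4% higher and 10.2% lower). The median was -0.01 for the members and -0.00 for all genes. The groups did not overlap in 8 members (3 higher, 5 lower), where 33.2% of all genes did not overlap. For Mrpl14, already given, the change was -0.51 ± 0.15 (edgeR adjusted p = 0.0183; lost without combination 1 or 4, and 0.221 by library totals). Mrpl15 was 35.9, 31.3, 39.2 and 39.7 CPM in glucagon and 39.0, 49.1, 49.0 and 51.9 CPM in the combination (0.37 ± 0.12, 0.0328). Mrpl19 was 8.55 to 10.0 CPM in glucagon and 11.8 to 13.2 CPM in the combination (0.46 ± 0.14, 0.0229), and 36% of its exonic bases are shared with Gcfc2 on the other strand. Mrpl34 differed by 0.52 ± 0.19 (0.0473). These 3 rises were each lost in at least 5 of 8 fits without 1 library. With the 2 groups fitted alone, 4 members were higher and 5 lower (34% of all genes called). By RLE scaling 2 were higher and 3 lower, and by library totals 15 higher and 1 lower. Library totals moved the median to 0.32 for the members and 0.31 for all genes.

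Cp against combination asks whether the hybrid differs from its 2 hormones given separately. No member was called, next to 0.031% of all genes, all of them lower in Cp, and 2 members had an unadjusted p under 0.05 with edgeR; DESeq2 also called none, as did the 2 groups fitted alone (0.129% of all genes). The 2 groups did not overlap in 1 member, Mrps23, next to 7.31% of all genes. Those 2 were Mrps23, 0.31 higher in Cp (95% interval 0.04 to 0.58, adjusted p = 0.676), and Mrpl36, with a difference of -0.36 (95% interval -0.67 to -0.04, adjusted p = 0.696). For 70 of the 73 members the 95% interval of the difference lay within 2-fold in either direction, and for 43 within 1.5-fold. For Mrpl38 it was -0.45 to 0.19, for Mrpl14 -0.55 to 0.07 and for Mrpl34 -0.17 to 0.60.

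Other members with defined places in the ribosome were mostly not called. In the stalk that recruits translation factors, Mrpl10 had a mean of 73.2 ± 17.03 CPM (SD, n = 4) in the control livers, with 82.7 ± 2.35 in glucagon, 72.1 ± 8.17 in T3, 62.9 ± 2.96 in the combination and 63.9 ± 5.04 in Cp. Its glucagon and combination livers did not overlap, with a difference of -0.40 that was not called (edgeR adjusted p = 0.0572). Its control replicate 1 was at 48.8 CPM and the other controls at 75.2 to 87.5 CPM. Without that library, Mrpl10 was called lower in the combination against control. In Cp against control, that fit also called 1 stalk member lower. Mrpl11, at the base of the stalk, ran from 57.3 ± 1.32 CPM in Cp to 77.0 ± 23.2 in control. Mrpl45, which holds the ribosome to the inner membrane, was 22.7 ± 2.45 CPM in control and 28.4 ± 3.29 in Cp, a difference of 0.32 (95% interval 0.05 to 0.59) with an adjusted p of 0.0799 from edgeR. Mrpl44, a large-subunit protein with an RNase III-like fold, stayed between 9.80 ± 0.870 and 12.5 ± 1.85 CPM in all groups.

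Mrps12, in the decoding centre, had some of the widest spread, at 40.3, 115, 162 and 153 CPM in control and 67.2, 92.1, 108 and 71.7 CPM in Cp. Its intervals reached from -1.07 to 0.22 for Cp against combination, so a 2-fold fall is inside them. The 3 relatives of bacterial S18 differed in level, with means over all libraries of 35.5 CPM per kb for Mrps18a, 7.26 for Mrps18b and 2.88 for Mrps18c. None was called in any comparison in the fit of all 20 libraries. Without control replicate 1, Mrps18a was called lower in T3 than in control. Mrps30 was 84.9, 38.4, 31.2 and 44.7 CPM in control and 28.5 to 32.5 CPM in glucagon. Mrps27, which also carries RNA-binding repeats, was 33.4 ± 2.99 CPM in control and 27.4 ± 2.43 in T3, without overlap and not called (edgeR adjusted p = 0.169). Mrpl48, at 0.857 to 1.37 CPM in the group means, had wide intervals, with -1.42 to 0.03 for glucagon against control, which does not exclude a 2-fold fall. Mrps16, with group means of 1.62 to 2.42 CPM, had intervals of similar width.

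Promoter sequences are shown for 5 of the 64 members matched in RefSeq (GRCm38.p6), since members that move in different directions may be compared by the letters at their starts. These are Mrpl14 and Mrpl50, each called in 4 comparisons, and Mrpl34, Mrpl1 and Mrpl22, which have the smallest p among the 6 matched members called in 3. Each runs from 250 bases before to 50 bases after the annotated start, 5′ to 3′ on the gene's strand, with matches to the searched motifs in capitals. The windows are chr17:45686099-45686398 (plus) for Mrpl14, chr4:49521034-49521333 (minus) for Mrpl50, chr8:71464676-71464975 (plus) for Mrpl34, chr5:96209865-96210164 (plus) for Mrpl1 and chr11:58171414-58171713 (plus) for Mrpl22.
Mrpl14: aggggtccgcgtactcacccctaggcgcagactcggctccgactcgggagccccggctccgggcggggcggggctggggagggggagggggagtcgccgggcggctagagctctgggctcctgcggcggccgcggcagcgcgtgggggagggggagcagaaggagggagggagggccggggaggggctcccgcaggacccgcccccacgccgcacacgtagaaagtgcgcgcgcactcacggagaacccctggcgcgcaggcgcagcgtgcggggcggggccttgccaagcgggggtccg
Mrpl50: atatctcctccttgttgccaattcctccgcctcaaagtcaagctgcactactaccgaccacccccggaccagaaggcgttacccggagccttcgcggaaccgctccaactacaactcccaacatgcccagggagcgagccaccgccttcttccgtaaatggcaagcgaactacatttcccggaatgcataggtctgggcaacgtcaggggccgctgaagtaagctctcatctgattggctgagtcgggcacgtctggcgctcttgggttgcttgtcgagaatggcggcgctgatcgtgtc
Mrpl34: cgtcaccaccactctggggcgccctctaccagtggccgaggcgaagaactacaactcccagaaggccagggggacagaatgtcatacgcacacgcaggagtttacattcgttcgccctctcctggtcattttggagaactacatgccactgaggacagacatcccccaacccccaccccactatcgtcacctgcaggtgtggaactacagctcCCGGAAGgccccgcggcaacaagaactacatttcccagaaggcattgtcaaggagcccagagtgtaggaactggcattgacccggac
Mrpl1: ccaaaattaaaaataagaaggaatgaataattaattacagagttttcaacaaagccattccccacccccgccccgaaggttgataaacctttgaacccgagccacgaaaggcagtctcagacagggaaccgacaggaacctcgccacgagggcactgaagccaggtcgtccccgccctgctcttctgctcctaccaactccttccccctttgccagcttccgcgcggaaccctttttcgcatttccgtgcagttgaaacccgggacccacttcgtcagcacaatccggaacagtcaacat
Mrpl22: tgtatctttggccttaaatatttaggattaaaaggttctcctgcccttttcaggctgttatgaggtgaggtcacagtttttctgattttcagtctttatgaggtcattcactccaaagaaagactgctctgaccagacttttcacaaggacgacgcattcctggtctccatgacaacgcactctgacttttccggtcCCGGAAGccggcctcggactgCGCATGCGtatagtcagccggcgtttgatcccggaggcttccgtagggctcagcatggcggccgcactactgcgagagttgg
Searched on both strands were the NRF1 core CGCATGC, the ETS motif CCGGAAG bound by GABP among others, the YY1 core AAGATGG, the E-box CACGTG, the CRE core TGACGTC and the ERR core AAGGTCA. The NRF1 core overlaps its own reverse complement, so the 2 matches in Mrpl22 cover 1 place. Mrpl34 held an ETS match and Mrpl22 an ETS and an NRF1 match, while Mrpl14, Mrpl50 and Mrpl1 held none of the 6. Of the other 3 members called in 3 comparisons and not shown, Mrpl39 held an NRF1 match, Mrps22 an ETS match and Mrpl40 none. Over the 64 members, 22 held the ETS motif (34.4%, next to 16.9% of 9253 tested genes and 9.12% of all 27025 promoters), 13 the YY1 core (20.3%, 6.97% and 6.48%) and 8 the NRF1 core (12.5%, 6.39% and 3.64%). The E-box was in 5 members (7.81%, next to 10.1% of tested genes), and the CRE and ERR cores in 4 each (6.25%, next to 5.38% and 3.26%). A match is a run of letters in this window and not a measured site.

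Several regulators of nuclear genes for mitochondria were called. Of 9 listed, 2 rose and none fell with glucagon, 2 rose and 2 fell with T3, 2 rose and 1 fell with the combination, and 3 rose and none fell with Cp. The shares called were 22.2%, 44.4%, 33.3% and 33.3%, next to 21.2%, 18%, 20.1% and 24.4% of all genes. Leaving out control replicate 1 gave 2 and 0, 1 and 1, 2 and 0, and 3 and 0. Ppargc1a, the fasting-induced coactivator, was 13.5, 11.2, 9.41 and 8.98 CPM in control, 200, 190, 166 and 156 CPM in glucagon, 5.19 to 9.08 CPM in T3, 11.5 to 16.9 CPM in the combination and 18 to 25.5 CPM in Cp. All glucagon livers were far above all others. It rose by 4.04 ± 0.20 with glucagon (edgeR adjusted p = 4.36e-11) and changed by -3.65 ± 0.20 from glucagon to the combination (1.58e-10). Ppargc1b, its relative, rose by 1.18 ± 0.28 with T3 (0.00803), 1.65 ± 0.28 with the combination (0.000356) and 1.32 ± 0.28 with Cp (0.00197). Esrra, the nuclear receptor ERR alpha that works with both, rose by 1.39 ± 0.23 with the combination (0.000303) and 1.18 ± 0.23 with Cp (0.000988). Pprc1 rose by 1.00 ± 0.23 with glucagon (0.00367). Gabpa, a subunit of GABP, fell by 1.02 ± 0.23 with T3 (0.00513), with control replicate 1 at 56.2 CPM and the other controls at 26.1 to 32.5 CPM. These values stand beside the member medians of -0.09, -0.13, -0.09 and -0.10 against control; no link between them was tested.

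The other parts of the mitochondrial translation system also split by gene. Of 7 mitoribosome proteins under other symbols, Dap3, a small-subunit GTP-binding protein, fell in the combination (-0.46, edgeR adjusted p = 0.0245) and Cp (-0.59, 0.00407), and no other was called. Without control replicate 1 the call was lost in the combination (0.0671) and kept in Cp (0.0120). Of 13 translation factors, 1 rose and 2 fell with glucagon, 0 and 2 with T3, 1 and 5 with the combination, and 1 and 4 with Cp (23.1%, 15.4%, 46.2% and 38.5% called, next to 21.2%, 18%, 20.1% and 24.4% of all genes). These counts were, without control replicate 1, 3 and 0, 0 and 2, 1 and 2, and 1 and 1. Tufm, the elongation factor that delivers charged tRNAs, was 3.102 to 6.34 CPM in control, 7.35 to 9.77 in glucagon and 4.36 to 5.29 in the combination, so that it rose by 0.79 ± 0.22 with glucagon (0.0159) and changed by -0.77 ± 0.22 from glucagon to the combination (0.0177). Mtif3, an initiation factor, rose by 0.55 ± 0.12 with the combination (0.00216) and 0.49 ± 0.12 with Cp (0.00410), and Mtif2, its partner, fell by 0.86 ± 0.22 with the combination (0.0105) and 0.94 ± 0.23 with T3 (0.00830). For Mtif2, control replicate 1 was at 45.5 CPM and the other controls at 19.1 to 24.1 CPM. Of 22 assembly factors, 1 rose and 3 fell with glucagon, none with T3, and 3 rose and 2 fell with the combination and with Cp (18.2%, 0%, 22.7% and 22.7% called, shares near or below those of all genes). With that control left out they were 1 and 2, 0 and 0, 1 and 2, and 3 and 2. Mettl17, which acts on the small subunit, was 1.13 ± 0.20 higher in the combination than in glucagon (0.000324), and Mtg1, a GTPase of the large subunit, fell by 0.97 ± 0.21 with Cp (0.00230). For Mtg1, control replicate 1 was at 47.7 CPM and the other controls at 24.1 to 24.8 CPM.

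A list of 18 genes for charging the mitochondrial tRNAs held aminoacyl-tRNA synthetases and the amidotransferase subunits Qrsl1 and Gatc. Of these 18, 1 fell with glucagon and 3 fell in each of T3, the combination and Cp, with none higher (5.56%, 16.7%, 16.7% and 16.7% called, below the share of all genes in each). Without control replicate 1 none fell with glucagon and 2 in each of the others. Nars2, for asparagine, was 20.4 to 41.2 CPM in control, 28.1 to 34.97 in glucagon, 9.32 to 15.3 in T3, 11.6 to 18.7 in the combination and 10.7 to 17.9 in Cp. Like the Mrpl14 levels, the Nars2 levels of the 12 livers with T3 in some form lay below all 8 without it, and it fell by 1.28 ± 0.22 with T3 (edgeR adjusted p = 0.000562). Another list held 18 genes for mitochondrial DNA, its transcription and RNA handling, with Polg, Polg2, Peo1 and Ssbp1 of DNA replication among them. Of these 18, 2 rose and 2 fell with glucagon, 1 and 1 with T3, 4 and 0 with the combination, and 4 and 2 with Cp (22.2%, 11.1%, 22.2% and 33.3% called, next to 21.2%, 18%, 20.1% and 24.4% of all genes). Fitted without control replicate 1 they were 2 and 0, 2 and 0, 4 and 0, and 5 and 1. Among those that rose with the combination were Polrmt, the mitochondrial RNA polymerase (0.85 ± 0.18, 0.00184), and Fastkd1 (0.88 ± 0.17, 0.00114). For scale, among 76 subunits of the respiratory chain and ATP synthase, 11 rose and 1 fell with glucagon, 3 and 4 with T3, 11 and 1 with the combination and 5 and 1 with Cp. The shares called were 15.8%, 9.21%, 15.8% and 7.89%, each below that of all genes. Without control replicate 1 the rises and falls were 11 and 1, 3 and 0, 5 and 1, and 9 and 1. Among 46 tested proteins of the cytosolic ribosome, 2 rose and 1 fell, 3 and 0, 1 and 2, and 2 and 3 in the same order (1 and 1, 2 and 0, 2 and 1, and 2 and 1 without that library). Their shares called were 6.52%, 6.52%, 6.52% and 10.9%, also below those of all genes. In combination against glucagon neither list held a called gene, next to 22.5% of all genes.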

How the data were processed

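Whole-liver RNA was purified with a Qiagen kit before Lexogen library preparation, per the labels' protocols. The deposited files hold raw counts for each gene symbol. The authors counted with HTSeq against mm10, according to the submitters' processing notes. The sources used here do not give versions, aligner, annotation or strand setting. Every listed symbol reaches at least 20 counts in 1 library.

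Genes were filtered with filterByExpr (minimum count 10, minimum total 15), which left 12907 and dropped 412, and were scaled by TMM. The edgeR 4.0.16 quasi-likelihood fit (R 4.3.3) held all 20 libraries and 5 group means, with 15 residual degrees of freedom and a biological coefficient of variation of 27.8%. P-values were adjusted over all genes tested. Positions and exon lengths came from GENCODE M21 (GRCm38), which held all 73 members by symbol; 31 share exonic bases with another gene, 7 of them over 25%.

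Alternatives were RLE scaling, library totals alone, no filter, DESeq2 1.42.0, the compared groups alone, the replicate number as a block, leaving out control 2 and glucagon 3, and leaving out each library. Leaving out the T3 group, with and without the block, was added after seeing the data. Labels tie the replicate number to the lane in 16 libraries, which is where the pairing comes from. Correlations of same-numbered libraries in the same lane ran from -0.28 to 0.41 over 24 pairs of libraries, with 9 above 0.1.

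Named members were the 3 highest and 3 lowest called per comparison, those called in 4 or more comparisons or in the interaction, the 3 highest and lowest per kilobase, and a set list by place in the ribosome; where none was called, the 2 of smallest p. Others called are named to complete a count. The members and lists were chosen with earlier results of these data known.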

Additional observations from a re-analysis of the deposited data

Results flagged for a closer look

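By Dixon's criterion for 4 values, which chance meets in about 1 in 20 groups, 22 of the 365 sets of 4 member levels (73 members in 5 groups; 6.03%) held 1 library far from the other 3, next to 7.27% of the sets of all genes tested. Of these, 9 were in control, all by replicate 1, and 13 in the other groups. Control replicate 1 was the high library in 8 members (11.0%), next to 4.10% of all genes tested: Mrpl20 (50.1 CPM, the others 25.3 to 29.2), Mrpl22 (32.7, the others 13.1 to 15.9), Mrpl39 (127, the others 52.9 to 61.6), Mrpl41 (7.81, the others 4.01 to 4.51), Mrpl47 (5.67, the others 2.04 to 2.25), Mrps5 (13.05, the others 8.22 to 8.82), Mrps22 (48.1, the others 16.0 to 18.9) and Mrps31 (46.3, the others 16.96 to 20.6). It was the low library in Mrpl28 (33.5 CPM, the others 73.8 to 75.0).

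In glucagon, replicate 1 was high in Mrpl1 (16.2 CPM, the others 9.63 to 10.7), Mrpl33 (78.7, the others 56.97 to 58.9) and Mrps14 (11.9, the others 7.76 to 8.25). In T3, replicate 3 was high in Mrps14 (11.9, the others 6.23 to 6.99) and low in Mrps7 (79.03, the others 98.3 to 102). In the combination, replicate 3 was high in Mrpl14 (129 CPM, the others 106 to 109) and low in Mrps2 (55.5, the others 67.03 to 69.1), replicate 4 was high in Mrpl22 (13.8, the others 7.82 to 8.22) and Mrpl28 (83.98, the others 64.6 to 67.5), and replicate 1 was low in Mrps35 (16.6, the others 22.6 to 22.8). In Cp, replicate 1 was low in Mrpl21 (8.05, the others 10.5 to 11.0) and Mrps15 (18.1, the others 23.9 to 24.7), and replicate 4 in Mrps18c (2.61, the others 3.26 to 3.34).

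The interaction of glucagon and T3 was called for Mrpl38 (-0.81, edgeR adjusted p = 0.0404) and for the regulators Ppargc1a (-3.07, 1.49e-06) and Pprc1 (-1.30, 0.0234). The Mrpl38 call was lost in several other fits, given above. The interaction includes T3 minus control, where lane and T3 cannot be told apart. All 4 glucagon livers were above all 4 combination livers in each of these 3 genes, which covers only 1 part of the interaction.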

How the results depend on the processing

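Of 42 called member results, 13 were called in every fit that left out 1 library: Mrpl38 in glucagon against control and combination against glucagon, Mrpl14 in T3, the combination and Cp, Mrpl1 in T3 and the combination, Mrpl22 in glucagon and the combination, Mrpl50 in the combination, Mrpl34 in Cp, and Mrps31 and Mrpl39 in T3. Of 30 falls against control, 20 were not called without control replicate 1. That fit also added calls, among them Mrps18a lower in T3 and Mrpl10 lower in the combination. No called result changed sign with library totals alone, where 27 of 42 stayed called. That scaling moved the median of all genes to -0.24, 0.17, 0.10, 0.24, 0.31, 0.13 and 0.17 in the order of the 7 comparisons and that of the members to -0.24, 0.10, 0.09, 0.19, 0.32, 0.12 and 0.27, and it called 13 members in glucagon, 9 in Cp (8 higher, 1 lower), 16 in combination against glucagon and 0 in the interaction. Stayed called were 39 with RLE, 42 with DESeq2, 36 with the replicate block and 34 without control 2 and glucagon 3.

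With the compared groups fitted alone, 1 member was called for glucagon, 0 for T3, 0 for the combination, 2 for Cp and 9 for combination against glucagon, and 0 in the interaction; these fits have fewer samples. The replicate block called 0 in the interaction and 4 for glucagon, where 3 calls were lost and Mrpl1 was added; over the 7 comparisons it ended 6 calls. Without control 2 and glucagon 3, 19 were called for Cp, 3 for combination against glucagon and 0 in the interaction. Without the T3 group, 5 were called for the combination and 3 for combination against glucagon, and with the replicate block as well, 3 for glucagon and 7 for Cp. The share of all genes called is not given for several of these fits or for most of those below, and the cause of these moves was not tested.

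Leaving out 1 library gave 3 (without control 1 or glucagon 2, 3 or 4) to 11 (control 3) calls for glucagon, 6 (control 1) to 17 (control 3) for T3, 4 (combination 2 or 3) to 14 (control 3) for the combination, 2 (Cp 4) to 19 (control 2) for Cp, 1 (combination 4) to 4 for combination against glucagon (2, both lower, without combination 3), 0 to 0 for Cp against combination and 0 to 1 for the interaction. At 4 mice a group the 95% interval lay within 2-fold for 58, 58, 61, 58, 69, 70 and 48 members in the order of the comparisons, so smaller changes may have gone uncalled. Members with few counts, such as Mrpl48, bear the widest intervals.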
